A study of Homo sapiens with 6 samples.

Results

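The genes described here are 37 genes of DNA replication and of the G1/S transition, among 11963 genes named by the array's probe table. They were taken by symbol from a list of known replication and cell cycle genes. The table assigned them 60 probe sets, groups of short oligonucleotides that are each read as 1 value. Of these, 57 exceeded the floor (12.7 intensity units, 3.67 on the log2 scale) on 2 arrays or more and were tested. The other 3, a further probe set each of TYMS, ORC5 and RFC1, lay at the floor in all 6 arrays. All 37 genes kept at least 1 tested probe set, 17 of them several. Where 1 value stands for a gene, it comes from its brightest tested probe set.

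RNA came from Hs578T cells, an established breast cancer line of mesenchymal character, that carried an inducible gene for the homeobox transcription factor HOXA5. It was taken from uninduced cells (0 h) and after 6 h and 9 h of induction, in each of 2 experiments, and each sample was read on 1 Affymetrix array, so each time group holds 2 arrays. The labels describe the experiments as separate batches of RNA from the same inducible line, so p-values measure the spread between these 6 arrays. The labels do not name the inducing agent, HOXA5 itself was not analysed here, and the samples used hold 0 uninduced arrays at 6 h or 9 h. Time in culture, the inducing agent and HOXA5 therefore cannot be told apart.

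Before a cell copies its DNA, the origin recognition complex and CDC6 load the MCM ring at origins, a step called licensing. At the G1/S transition, cyclin D and cyclin E kinases inactivate the retinoblastoma protein, which frees E2F factors to switch on genes for licensing, for the replication machinery and for nucleotide synthesis. CDC45 and the GINS complex then turn the MCM ring into an active helicase. RPA coats the single strands, polymerase alpha with its primase starts each strand, polymerases delta and epsilon extend it on the PCNA clamp that RFC loads, and FEN1 and DNA ligase I join the fragments of the lagging strand.

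Many of these genes are known E2F targets, and promoter letters are shown here for 5 members that recur in the results. By their brightest probe sets, ORC1 and RPA1 differed from 0 h in the same direction in both experiments, and PCNA in opposite directions. By the test given below, CDC6 differed between the experiments in both its probe sets, and MCM7 in 1 of its 2. Each line gives the 250 bases before the start of the gene, 5′ to 3′ on the gene's own strand, from RefSeq (GRCh38.p14). Capitals mark E2F-type motifs (TTCCCGC or TTGGCGC or TTCGCGC or TTGCCGC) and the CCAAT box, each on either strand. In ORC1 the CCAAT box and both E2F-type matches overlap in 1 run of capitals.
ORC1, chr1:52404424-52404673, strand minus: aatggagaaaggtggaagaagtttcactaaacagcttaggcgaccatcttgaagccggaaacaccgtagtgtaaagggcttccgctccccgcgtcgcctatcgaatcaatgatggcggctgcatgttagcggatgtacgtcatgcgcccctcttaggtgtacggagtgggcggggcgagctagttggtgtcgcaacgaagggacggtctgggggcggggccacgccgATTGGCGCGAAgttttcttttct
CDC6, chr17:40287629-40287878, strand plus: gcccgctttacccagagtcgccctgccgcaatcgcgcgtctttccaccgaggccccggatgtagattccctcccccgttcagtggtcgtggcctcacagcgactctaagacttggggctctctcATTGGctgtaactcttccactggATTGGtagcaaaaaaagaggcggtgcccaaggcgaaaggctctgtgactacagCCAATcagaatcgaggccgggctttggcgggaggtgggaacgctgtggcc
MCM7, chr7:100101398-100101647, strand minus: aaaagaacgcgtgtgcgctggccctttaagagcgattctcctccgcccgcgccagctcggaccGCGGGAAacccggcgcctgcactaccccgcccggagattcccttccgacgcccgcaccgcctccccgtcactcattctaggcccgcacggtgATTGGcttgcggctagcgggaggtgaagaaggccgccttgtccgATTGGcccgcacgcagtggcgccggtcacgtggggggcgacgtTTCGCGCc
PCNA, chr20:5126623-5126872, strand minus: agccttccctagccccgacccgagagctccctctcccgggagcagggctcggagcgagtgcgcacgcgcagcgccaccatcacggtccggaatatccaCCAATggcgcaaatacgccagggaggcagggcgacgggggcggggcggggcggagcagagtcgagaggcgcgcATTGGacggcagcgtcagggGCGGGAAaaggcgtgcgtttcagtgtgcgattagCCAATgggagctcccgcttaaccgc
RPA1, chr17:1829755-1830004, strand plus: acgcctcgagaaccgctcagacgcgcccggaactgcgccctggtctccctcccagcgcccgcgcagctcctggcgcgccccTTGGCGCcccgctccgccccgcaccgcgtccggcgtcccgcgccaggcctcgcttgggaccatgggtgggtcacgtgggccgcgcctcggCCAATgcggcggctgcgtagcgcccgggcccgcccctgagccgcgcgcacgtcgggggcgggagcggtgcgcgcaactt
PCNA has 2 start sites in that table and MCM7 has 3, and the first listed is shown. The 1 E2F-type match of CDC6 and the third of MCM7 lie in the 50 bases after the start and are not printed. Only the spellings given above were searched, so lower case letters do not mean that other forms of the motif are absent.

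Promoter windows of 300 bases (250 before and 50 after the start) were found for 31 of the 37 members. An E2F-type motif was present in 24 of the 31 (77.4%), against 13.1% of the 27305 genes with a window and 19.7% of the 8459 such genes tested on the arrays. A CCAAT box was present in 20 of them (64.5%), against 35.7% and 37.3%. The CHR-type motif of many mitotic promoters (TTTGAA or TTCGAA) was present in 2 (6.45%), against 16.6% and 12%. ORC2, ORC5, CDC45, POLD1, FEN1, RRM2 and CCNE1 had no E2F-type match of these letters in the window. A match is a description of the letters and not a site of binding.

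The cells matched their label in part. Of 10 mesenchymal markers, 9 were above the floor in all 6 arrays, with VIM between 12.06 and 12.90 on the log2 scale, and TWIST1 was above it in 5 arrays. Of the luminal markers, PGR, KRT19 and EPCAM were at the floor in all arrays and CDH1 was above it in 3. The other 6 were above it in all 6 arrays: KRT18 between 9.61 and 11.78, GATA3 between 6.83 and 7.59, and KRT8, ESR1, FOXA1 and ERBB3 between 4.09 and 6.26. The summed luminal level ranged over 1144 to 3818 intensity units at 0 h, 1134 to 2130 at 6 h and 1265 to 2303 at 9 h. KRT18 was the brightest luminal marker in every array, so that sum mostly follows KRT18. Leukocyte and endothelial markers summed to between 25.3 and 65.6 units each. Of these, PECAM1 (4.82 to 5.53) and CD3D (3.95 to 5.32) were above the floor in all 6 arrays, PTPRC was in 4, and CDH5 was in none. For ACTB the 3′ to 5′ ratio, a sign of RNA quality, was 1.82 in the 9 h array of experiment 1 and between 0.918 and 1.09 in the others. Brightness varied as well. In experiment 1 the arrays had a median of 95.7 units at 0 h, 18.7 at 6 h and 48.7 at 9 h as deposited, and in experiment 2 of 49.0, 39.0 and 42.3, so the 6 h array of experiment 1 was the dimmest. The values were quantile normalised, and every change below is relative to the whole array. Without scaling, the tested genes as a whole shifted by a median log2 of -1.38 at 6 h and -0.58 at 9 h, and at 6 h all named members that were higher after scaling were lower in unscaled values. The part of luminal marker level, RNA quality and brightness in the results was not tested.

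The question the arrays address is which genes change after HOXA5 is induced. For the replication genes, 0 of 57 probe sets passed an adjusted p of 0.05 in limma at 6 h or at 9 h against 0 h, at 9 h against 6 h, or with both induced times together against 0 h. The background in the same fit was 0% of 18360 probe sets in each of these comparisons. With the experiment as a paired term (replicate block) the members' count was again 0 of 57 in each. The background was then 0% at 6 h against 0 h, 0.359% at 9 h against 0 h, 0% at 9 h against 6 h and 0.163% for both induced times. At an unadjusted p under 0.05, 1 of 57 member probe sets (1.75%) passed at 6 h without the paired term, beside 4.77% of all probe sets, and 5 (8.77%) with it, beside 9.7%. At 9 h it was 5 (8.77%) beside 7.41% without the term and 10 (17.5%) beside 13.9% with it. No time effect on a replication gene was called at this number of arrays, and the values below describe sizes and directions. The arrays read bulk RNA, so fewer cells in S phase and less of a transcript per cell cannot be told apart.

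The direction of the group was not the same in both experiments, a difference that was not tested. At 6 h, 31 of the 37 genes were higher than at 0 h in experiment 1, with a median log2 change of 0.35, beside 48.6% of all tested genes. In experiment 2, 23 of 37 were lower, with a median of -0.15, beside 46.1% of all tested genes. Median scaling moved that median to -0.42, with 56.5% of all tested genes lower, and 69.3% of those in the members' range of intensity. The 6 h array of experiment 1 was the dimmest and the 0 h array of that experiment the brightest. At 9 h, 28 of 37 were lower in experiment 2 (median -0.37), beside 47.3% of all tested genes, while 20 were higher and 17 lower in experiment 1 (median 0.019). With median scaling the 9 h median of experiment 2 was -0.64, with 53.7% of all tested genes lower, and 63.7% of those in the members' range of intensity. Over both experiments the median was 0.11 at 6 h and -0.19 at 9 h, beside 0.012 and -0.020 for all tested genes. The 6 h median turned to -0.10 with median scaling and was 0.27 with the lot line as block. Dropping the uninduced array of experiment 1 gave a 6 h median of -0.090, and dropping that of experiment 2 a 9 h median of -0.060. The SD between the medians of the experiments was 0.35 at 6 h and 0.28 at 9 h, larger than the medians themselves.

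Of the 37 members, 11 at 6 h and 14 at 9 h, 19 different genes in all, kept their arrays apart from those of 0 h. At 6 h, 7 genes had both arrays above both 0 h arrays (18.9% of the members, beside 16.8% of all genes): ORC1, ORC3, CDC45, GINS1, POLE, RRM1 and CDC25A. At 6 h, 4 had both arrays below (10.8%, beside 15.3%): MCM6, POLE2, RPA1 and RPA3. At 9 h, 5 lay above (13.5%, beside 19.2%): ORC1, ORC2, ORC5, RFC1 and RRM1. The 9 that lay below at 9 h (24.3%, beside 19.4%) were MCM3, MCM6, PRIM1, POLD1, POLE2, RFC2, RPA1, RPA3 and CCND1. These shares are near those of all genes. ORC1 and RRM1 were above at both times, and MCM6, POLE2, RPA1 and RPA3 below at both. The share of all genes that did so at both times was not counted, and both times are set against the same 0 h arrays. The second probe set of RRM1 overlapped 0 h at 9 h, and that of RPA1 at 6 h.

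**Figure D1:**
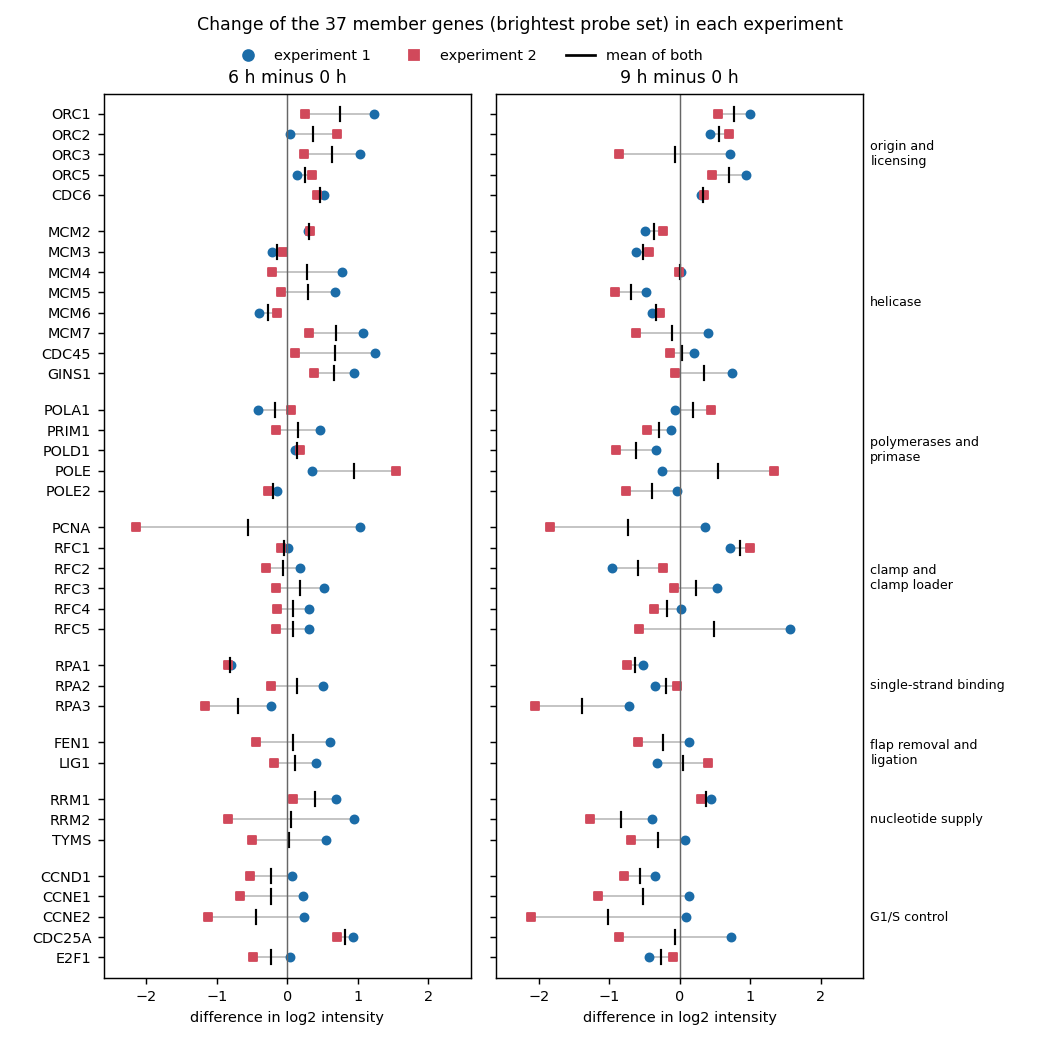
Log2 difference of each of the 37 genes (brightest probe set) from 0 h, at 6 h on the left and 9 h on the right, with experiment 1 as circles, experiment 2 as squares, the mean as a black tick and the genes ordered by role. At 6 h, 31 circles lie right of 0 and 23 squares left of it, all 5 origin and licensing genes lie right of 0 in both experiments, and at 9 h all 8 helicase genes and all 5 G1/S control genes have their square left of 0.

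Of the 8 role groups, origin and licensing was the only one with every member higher at 6 h in both experiments. All 5 were higher at 6 h in both experiments (median log2 change 0.47), and 4 of 5 were at 9 h (median 0.56). These are directions relative to the array, and none of the 5 passed the test. ORC1, the largest subunit of the origin recognition complex, had log2 intensities of 5.32, 6.56 and 6.32 at 0, 6 and 9 h in experiment 1, and 6.30, 6.56 and 6.84 in experiment 2. All 4 induced arrays were above both 0 h arrays, but the 0 h arrays differed from each other by more than the later change in experiment 2. The log2 change was 0.74 ± 0.47 at 6 h (1.67-fold) and 0.77 ± 0.47 at 9 h (1.71-fold; standard error, n = 2 arrays per group), with limma adjusted p = 0.969 and 0.772.

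ORC2, ORC3 and ORC5 gave smaller or mixed values. ORC5 read 7.38, 7.52 and 8.31 in experiment 1 and 8.15, 8.50 and 8.61 in experiment 2, a change of 0.25 ± 0.42 at 6 h and 0.70 ± 0.42 at 9 h. The 9 h arrays of ORC5 were above both 0 h arrays, while the 6 h arrays were not, and its second probe set changed by 0.30 and 0.60. ORC3 read 6.87, 7.90 and 7.58 in experiment 1 and 7.44, 7.68 and 6.58 in experiment 2, so it was higher in both experiments at 6 h (0.64 ± 0.43) and split at 9 h. ORC2 changed by 0.37 at 6 h and 0.56 at 9 h. Of the subunits that are not members, ORC4 was lower at 6 h in both experiments (-0.04 and -0.25) and had a change of 0.88 ± 0.34 at 9 h, larger than that of ORC1. ORC6 changed by 0.84 and -0.06 at 6 h and by 0.65 ± 0.36 over both experiments at 9 h.

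CDC6, the loader that brings the MCM ring to the origin complex, had 2 probe sets that gave nearly the same picture. The brighter read 7.17, 7.69 and 7.47 in experiment 1 and 8.42, 8.84 and 8.77 in experiment 2. Every array of experiment 2 lay above every array of experiment 1, and within each experiment the induced arrays lay 0.30 to 0.52 above the 0 h array. The log2 change was 0.47 ± 0.62 at 6 h and 0.33 ± 0.62 at 9 h.

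The helicase genes were higher at 6 h in experiment 1 and lower at 9 h in experiment 2. At 6 h, 6 of 8 were higher in experiment 1 and 4 of 8 in experiment 2 (median change 0.30). At 9 h, all 8 were lower in experiment 2 and 4 of 8 in experiment 1 (median -0.22). MCM5, a subunit of the MCM ring, read 8.14, 8.81 and 7.66 in experiment 1 and 9.22, 9.13 and 8.30 in experiment 2. In both experiments 9 h was the lowest time, with a change from 0 h of -0.70 ± 0.42 (limma adjusted p = 0.765), yet the groups overlapped because the experiments started 1.08 apart. The second probe set of MCM5 changed by -0.57 at 9 h.

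MCM3 showed the same order in both experiments at lower spread. It read 8.92, 8.70 and 8.30 in experiment 1 and 9.23, 9.16 and 8.79 in experiment 2, a change of -0.15 ± 0.30 at 6 h and -0.53 ± 0.30 at 9 h. Both 9 h arrays of MCM3 were below both 0 h arrays. MCM6 changed by -0.27 and -0.33 and MCM2 by 0.31 and -0.37 at 6 h and 9 h.

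MCM7 and MCM4, the remaining ring subunits here, were read by several probe sets each. The brighter of MCM7 read 7.90, 8.97 and 8.30 in experiment 1 and 9.04, 9.34 and 8.42 in experiment 2, a change of 0.68 ± 0.40 at 6 h and -0.11 ± 0.40 at 9 h. The other MCM7 probe set read 7.89, 8.48 and 7.57, and 9.11, 9.50 and 8.63, a change of 0.49 ± 0.56 and -0.40 ± 0.56. Both MCM7 probe sets had their highest value at 6 h within each experiment, but the 6 h arrays overlapped the 0 h arrays. The 4 probe sets of MCM4 changed by between -0.20 and 0.28 at 6 h and between -0.33 and 0.00 at 9 h.

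Of the factors that complete the helicase, CDC45 and GINS1 were higher at 6 h in both experiments. CDC45 read 6.66, 7.90 and 6.86 in experiment 1 and 7.70, 7.80 and 7.56 in experiment 2, a change of 0.67 ± 0.44 at 6 h and 0.03 ± 0.44 at 9 h. Its 6 h arrays were above both 0 h arrays, and within the experiments the 6 h change was 1.24 in experiment 1 and 0.10 in experiment 2. GINS1, a subunit of the GINS complex, changed by 0.66 at 6 h and 0.34 at 9 h. The other GINS subunits, which are not members, did not share this: GINS2 changed by -0.04 and -1.04 in experiments 1 and 2 at 6 h, GINS3 by 0.67 and -2.21, and GINS4 by 1.83 and -0.29.

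Among the polymerases, the catalytic subunit of polymerase epsilon was higher and its partner subunit lower at 6 h in both experiments, while at 9 h in experiment 1 both were lower (-0.25 and -0.046). POLE, the catalytic subunit, read 6.54, 6.89 and 6.29 in experiment 1 and 6.33, 7.88 and 7.66 in experiment 2, a change of 0.95 ± 0.55 at 6 h (1.93-fold, limma adjusted p = 0.969) and 0.54 ± 0.55 at 9 h. Its 6 h arrays were above both 0 h arrays, while its 9 h arrays lay on either side of them. POLE2, the second subunit, read 6.74, 6.60 and 6.70 in experiment 1 and 6.89, 6.62 and 6.13 in experiment 2, a change of -0.21 ± 0.38 and -0.40 ± 0.38. The gap between the 2 subunits was not tested.

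POLD1, the catalytic subunit of polymerase delta, read 6.51, 6.62 and 6.17 in experiment 1 and 7.06, 7.23 and 6.16 in experiment 2. Both 9 h arrays were below both 0 h arrays, a change of -0.62 ± 0.41, and the 6 h change was 0.14 ± 0.41. PRIM1, the small primase subunit, changed by 0.15 and -0.30, and POLA1, the catalytic subunit of polymerase alpha, by -0.18 and 0.18.

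By their brightest probe sets, the clamp and its loader were split by experiment at 6 h. All 6 genes were then higher in experiment 1 and lower in experiment 2, RFC1 by little (0.010 and -0.097). The second probe sets of RFC1 (0.26 and -0.46) and RFC3 (0.33 and -0.29) were split as well. That of RFC2 was lower in both experiments (-0.51 and -0.32). Of the further RFC5 probe sets, 1 was lower in both (-0.40 and -0.48) and 1 higher in both (0.68 and 0.53). PCNA, the sliding clamp, read 8.23, 9.26 and 8.59 in experiment 1 and 8.87, 6.71 and 7.02 in experiment 2. Its level was thus 1.02 higher at 6 h in one experiment and 2.15 lower in the other, and the mean change of -0.56 ± 0.84 at 6 h and -0.74 ± 0.84 at 9 h describes neither. PCNA was read by 1 probe set, so no second reading was at hand.

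RFC1, the large subunit of the clamp loader, had the largest positive change at 9 h of the 37 genes. It read 7.67, 7.68 and 8.39 in experiment 1 and 8.11, 8.01 and 9.11 in experiment 2, with both 9 h arrays above both 0 h arrays. The change was 0.86 ± 0.35 at 9 h (1.81-fold; limma adjusted p = 0.668 without and 0.167 with the paired term) and -0.04 ± 0.35 at 6 h, and the second probe set changed by 0.38 at 9 h. RFC2 read 7.67, 7.85 and 6.72 in experiment 1 and 7.72, 7.42 and 7.49 in experiment 2, a change of -0.60 ± 0.37 at 9 h. The second RFC2 probe set changed by -0.42 at 6 h and -0.19 at 9 h. Its 9 h arrays (6.98 and 7.63) overlapped those of 0 h (7.30 and 7.70).

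The other loader subunits gave small or disagreeing values. RFC3 changed by 0.18 and 0.23 and RFC4 by 0.08 and -0.18 at 6 h and 9 h. RFC5 was read by 3 probe sets that disagreed, with changes at 9 h of 0.49, -0.52 and 0.37. The brightest of them read 7.46, 7.76 and 9.02 in experiment 1 and 6.67, 6.51 and 6.08 in experiment 2, so no single level can be given for RFC5.

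RPA, the trimer that coats single-stranded DNA, was lower at 9 h for all 3 subunits in both experiments (median -0.63). RPA1, the large subunit, read 8.85, 8.06 and 8.33 in experiment 1 and 8.94, 8.11 and 8.20 in experiment 2, so all 4 induced arrays lay below both 0 h arrays and the experiments nearly coincided. The change was -0.82 ± 0.25 at 6 h (0.568-fold; limma adjusted p = 0.969 without and 0.370 with the paired term) and -0.63 ± 0.25 at 9 h (adjusted p = 0.656 and 0.249).

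The second probe set of RPA1 gave another time course. It read 8.72, 8.85 and 8.12 in experiment 1 and 8.75, 8.20 and 7.72 in experiment 2, a change of -0.21 ± 0.32 at 6 h and -0.82 ± 0.32 at 9 h. The 2 probe sets are thus both lower at 9 h, while at 6 h the second is lower in experiment 2 alone. RPA3, the small subunit, read 7.88, 7.65 and 7.16 in experiment 1 and 7.82, 6.65 and 5.77 in experiment 2, ordered by time in both. Its change was -0.70 ± 0.55 at 6 h and -1.39 ± 0.55 at 9 h (0.383-fold; adjusted p = 0.656 and, with the paired term, 0.152). RPA2, the middle subunit, changed by 0.13 and -0.19.

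**Figure D2:**
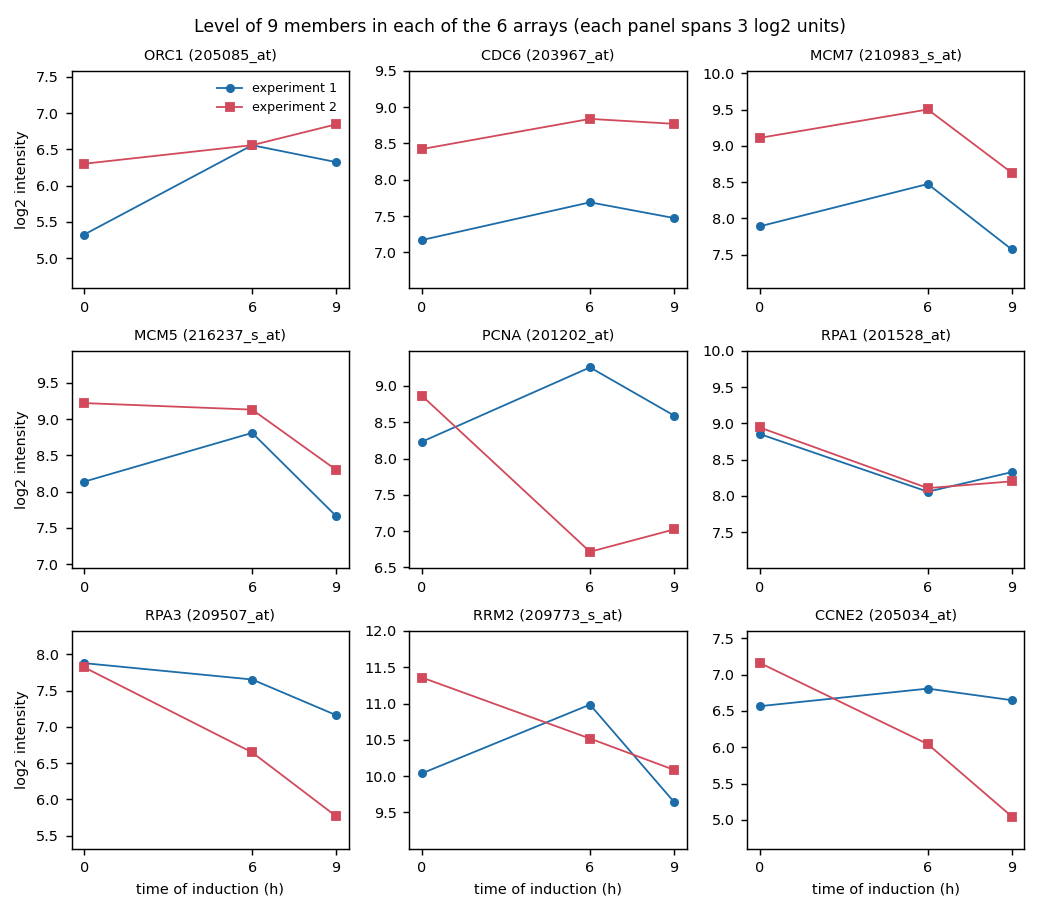
Log2 intensity of 9 members in the 6 arrays against time of induction in hours, experiment 1 as circles and experiment 2 as squares, 1 point per array; panels span 3 log2 units each and have their own level, and levels are not comparable between panels. RPA1 overlaps between the experiments and lies lower at 6 h and 9 h, and PCNA runs in opposite directions. CDC6 and the less bright MCM7 probe set, the one drawn, run in parallel with experiment 2 above experiment 1. The brighter MCM7 probe set is not drawn and was higher in experiment 2 by 1.14, 0.37 and 0.12 at 0, 6 and 9 h.

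Of the enzymes that finish the lagging strand, FEN1, the flap endonuclease, had probe sets of unlike size. The brighter read 8.43, 9.03 and 8.55 in experiment 1 and 8.62, 8.18 and 8.03 in experiment 2, a change of -0.23 ± 0.36 at 9 h. The other read 8.69, 8.66 and 7.68 in experiment 1 and 9.08, 7.73 and 7.04 in experiment 2, a change of -1.52 ± 0.40 (0.348-fold), with both 9 h arrays below both 0 h arrays. That second probe set, singled out after its values were seen, had the lowest adjusted p of all member probe sets at 9 h in limma, 0.559 without and 0.0878 with the paired term. LIG1, DNA ligase I, changed by 0.11 and 0.04 at 6 h and 9 h.

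The nucleotide supply genes did not move together. RRM1, the large subunit of ribonucleotide reductase, read 9.30, 9.99 and 9.75 in experiment 1 and 9.68, 9.76 and 9.98 in experiment 2, with all 4 induced arrays above both 0 h arrays. Its change was 0.38 ± 0.25 at both times, and its second probe set changed by 0.44 and 0.02. RRM2, the small subunit whose amount is tied to S phase, read 10.04, 10.98 and 9.64 in experiment 1 and 11.36, 10.52 and 10.09 in experiment 2. It was lower at 9 h in both experiments, with a mean change of -0.83 ± 0.43, and went opposite ways at 6 h.

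The second RRM2 probe set did not share the 9 h difference, with a change of 0.02 ± 0.32. TYMS, thymidylate synthase, read 10.06, 10.62 and 10.14 in experiment 1 and 11.15, 10.65 and 10.45 in experiment 2, a change of 0.02 ± 0.36 at 6 h and -0.31 ± 0.36 at 9 h. Neither gene kept its 9 h arrays apart from its 0 h arrays.

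The G1/S control genes were lower at 9 h in experiment 2 without exception (5 of 5, median -0.86) and mixed in experiment 1 (3 of 5 higher, median 0.083). CCNE2, an E-type cyclin, read 6.57, 6.81 and 6.65 in experiment 1 and 7.16, 6.04 and 5.05 in experiment 2, a change of -1.02 ± 0.61 at 9 h. Its second probe set gave 6.45, 6.75 and 6.40, and 7.23, 6.07 and 5.16, so at 6 h both readings were higher in experiment 1 and lower in experiment 2. At 9 h both were far lower in experiment 2 (-2.12 and -2.07) and close to 0 in experiment 1 (0.083 and -0.052). CCNE1, the other E-type cyclin, read 6.63, 6.85 and 6.75 in experiment 1 and 6.75, 6.07 and 5.58 in experiment 2, a change of -0.52 ± 0.52.

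CCND1, cyclin D1, was lower at 9 h in both experiments. It read 8.18, 8.25 and 7.84 in experiment 1 and 8.14, 7.60 and 7.34 in experiment 2, with both 9 h arrays below both 0 h arrays and a change of -0.57 ± 0.34. Its second probe set changed by -1.03 ± 0.53 at 6 h and -1.23 ± 0.53 at 9 h (limma adjusted p = 0.674), in the same direction in both experiments. CDC25A, a phosphatase that activates the S phase kinases, read 5.66, 6.58 and 6.38 in experiment 1 and 6.38, 7.09 and 5.52 in experiment 2, a change of 0.82 ± 0.49 at 6 h.

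The second CDC25A probe set contradicted this, with a change of -0.83 at 6 h, where its array of experiment 1 was at the floor. E2F1, the transcription factor at the head of this programme, read 6.62, 6.65 and 6.18 in experiment 1 and 6.81, 6.31 and 6.71 in experiment 2, a change of -0.23 ± 0.39 and -0.27 ± 0.39 at 6 h and 9 h. Its second probe set was higher in experiment 1 and lower in experiment 2, by 0.90 and -1.42 at 6 h and by 0.23 and -0.42 at 9 h. Among the 17 genes with several tested probe sets, all probe sets of the gene had 1 sign in 13 at 6 h and in 14 at 9 h.

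For a few member probe sets the difference between the experiments passed the test. In the limma fit with time and experiment, 4 of 57 member probe sets (7.02%) were higher in experiment 2 at an adjusted p under 0.05, beside 0.888% of all probe sets, and 0 of 57 were lower, beside 1.59%. The 4 were both probe sets of CDC6, 1 of the 2 of MCM7 and 1 of the 4 of MCM4. Counted by gene on the brightest probe set, 1 of 37 members (2.7%), CDC6, passed in either direction. That share is near the 2.57% of all genes. CDC6 differed by 1.23 ± 0.19 (2.35-fold, adjusted p = 0.0139), and its second probe set, at 7.33, 7.67 and 7.45 in experiment 1 and 8.41, 8.86 and 8.55 in experiment 2, by 1.13 ± 0.19 (adjusted p = 0.0202). For CDC6 all 3 arrays of experiment 2 were above all 3 of experiment 1 in both readings.

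The probe set of MCM7 at 9.11 against 7.89 at 0 h differed by 1.10 ± 0.18 (2.15-fold, limma adjusted p = 0.0163). That of MCM4, at 6.92, 6.96 and 6.92 in experiment 1 and 8.09, 8.29 and 7.76 in experiment 2, differed by 1.11 ± 0.23 (2.16-fold, adjusted p = 0.0377). The other MCM7 probe set differed by 0.55 (adjusted p = 0.215) and the brightest of MCM4 by 0.35 (adjusted p = 0.438). The remaining MCM4 probe sets differed by 0.26 and -0.15 (adjusted p = 0.680 and 0.758), the last being lower in experiment 2 at every time. The calls rest on the model: 1 member probe set passed under median scaling, and 0 passed with no scaling, with no filter on low values or with no intensity trend. Between 3 and 8 passed when 1 array was left out, with 8 without either 0 h array, and the 4 differences stayed between 0.99 and 1.29 under every setting run.

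Over the whole group the experiments differed at 0 h before any induction. At 0 h, 29 of 37 members were higher in experiment 2, with a median difference of 0.32, beside 49.8% of all tested genes. The changes from 0 h within each experiment are set against these same 0 h arrays. At 6 h 17 of 37 were higher (median -0.10) and at 9 h 22 of 37 (median 0.23). In unscaled values 7 of 37 were higher at 0 h, where all genes had a median difference of -0.84. By role, the nucleotide supply genes differed by a median of 1.08 and the origin and licensing genes by 0.77 at 0 h, while the G1/S control genes had a median difference of -0.65 at 6 h and -0.86 at 9 h. The 6 h array of experiment 2 carries the lot line of experiment 1 in its label, and its title was followed.

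**Figure D3:**
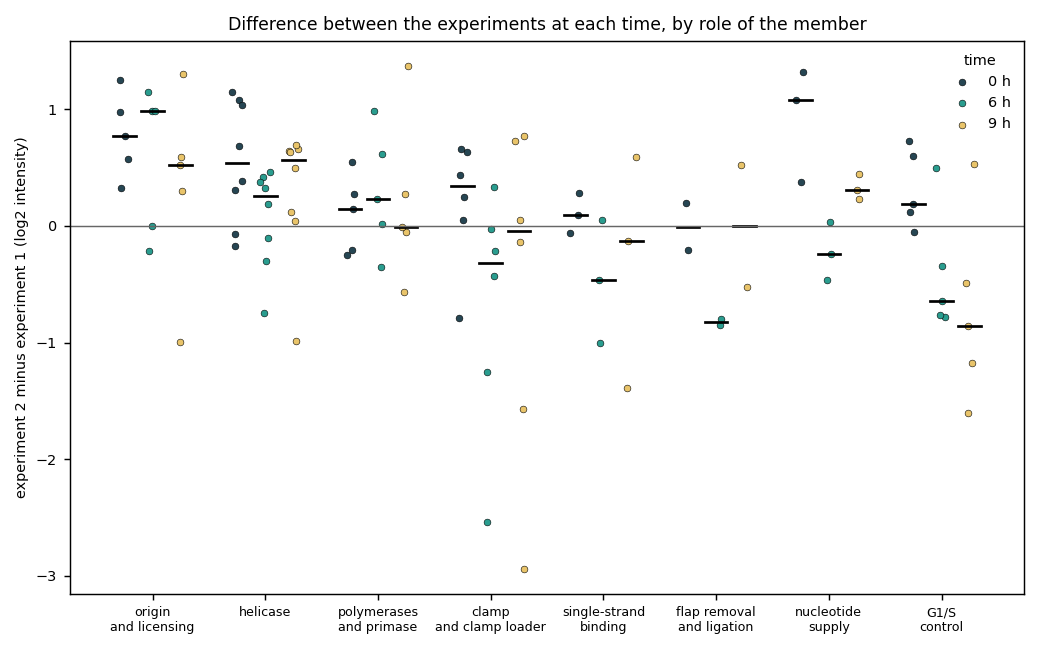
Log2 intensity in experiment 2 minus experiment 1 for each gene (1 point, brightest probe set) at 0, 6 and 9 h, by role group, with black bars at the medians; values above 0 are higher in experiment 2. Origin and licensing genes lie mostly above 0 at all 3 times, and the G1/S control genes lie mostly above 0 at 0 h and below it at 6 h and 9 h.

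Other genes of the pathway were taken from a list of 56 of which 52 were tested. In the time comparisons 0 of 52 passed in either limma fit, and at an unadjusted p under 0.05 without the paired term 1 did at 6 h (1.92%, beside 4.22% of all genes) and 9 did at 9 h (17.3%, beside 7.91%). Their median change was 0.056 at 6 h and -0.15 at 9 h, and 37 of 52 were higher at 6 h in experiment 1 while 32 of 52 were lower in experiment 2. ASF1B, a histone chaperone that works at the fork, read 8.60, 8.75 and 7.48 in experiment 1 and 8.90, 8.59 and 7.61 in experiment 2. Both 9 h arrays lay below every earlier array, a change of -1.20 ± 0.27 with the lowest adjusted p of the list, 0.543 without and 0.0744 with the paired term.

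GINS2, the partner of GINS1, changed by -1.21 ± 0.45 at 9 h, and MYC, a growth factor-induced transcription factor upstream of G1/S entry, by 1.10 ± 0.44. E2F5, a repressive E2F, had both 0 h arrays at the floor and read 4.21 and 5.42 at 6 h and 5.77 and 5.26 at 9 h. CDK6, a cyclin D partner, likewise had its 0 h arrays at the floor and read 5.67 and 4.83 at 6 h and 4.96 and the floor at 9 h. RBL2, a retinoblastoma relative, changed by -1.05 ± 0.71 and CHAF1A, a chromatin assembly subunit, by 0.75 ± 0.35 at 6 h. None of these changes passed in limma.

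Between the experiments, 3 of these 52 genes (5.77%) passed in limma, beside 2.57% of all genes. DTL, which marks CDT1 for destruction in S phase, was higher in experiment 2 by 1.11 ± 0.23 (adjusted p = 0.0372). CDKN1B, the p27 kinase inhibitor, differed by -1.23 ± 0.27 (adjusted p = 0.0485), and DBF4, the activator of the kinase that fires origins, by -1.23 ± 0.27 (adjusted p = 0.0494). At 0 h, 35 of the 52 were higher in experiment 2, with a median difference of 0.20.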

How the data were processed

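The authors deposited 1 linear intensity per probe set and array for 22283 probe sets, not scaled between arrays. Per the labels, RNA was extracted with TRIzol and purified on columns. Which software summarised the arrays is not stated in those labels. The deposited intensities were quantile normalised, set to a floor at their 25th percentile and log2 transformed. Names came from the platform's table of probe sets (19071 with 1 symbol, 1043 with several, 2169 with none), with symbols read through Entrez numbers. After 68 controls were left out, 18360 probe sets were tested, for 10444 genes.

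Changes were fitted with lmFit and eBayes (trend by intensity) of limma 3.58.1 in R 4.3.3, two-sided, adjusted by Benjamini-Hochberg over all tested probe sets. The main fit has time alone (3 residual degrees of freedom). Per the labels, an experiment is 1 batch of RNA, which pairs its arrays. Within an experiment, deviations from the group means correlated at 0.247 for 0 h with 6 h, 0.336 for 0 h with 9 h and 0.391 for 6 h with 9 h. The paired fit adds it (2 degrees of freedom). The ± values are standard errors.

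Every member is named. Values in all arrays are given for members past the threshold, for the 2 per role with the largest change of 1 sign in both experiments at 6 h or 9 h, and for members changed at least 2-fold in opposite directions. Values of FEN1, CCNE1, CCNE2, TYMS, the brightest RFC5 probe set, second probe sets, ORC4, ORC6, GINS3 and GINS4 were added after their values were seen. Up to 4 other pathway or mitosis genes with the largest changes of 1 sign are named for each time. The members and lists were chosen with earlier results of these data known. Alternatives were other scalings, an offset of 16, no filter, no trend, the mean of a gene's probe sets, the lot line as block and leaving out each array. The number of arrays limits the precision.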

Additional observations from a re-analysis of the deposited data

Results flagged for a closer look

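By their brightest probe set, 9 of the 37 genes changed in opposite directions in the experiments by more than 0.3 on the log2 scale in each, at 6 h or 9 h against 0 h. The share of all genes past that size was not counted. Opposite signs of any size were found for 19 of 37 members at 6 h, beside 4404 of 10444 tested genes. At 9 h it was 17 of 37, beside 3778 of 10444. With 1 array per time and experiment these differences were not tested. Each change is taken from the 0 h array of its own experiment, so each difference also holds the gap between the 0 h arrays. PCNA, the sliding clamp, changed by 1.02 in experiment 1 and -2.15 in experiment 2 at 6 h, a difference of -3.18, and by 0.36 and -1.84 at 9 h, a difference of -2.20. RRM2, the small subunit of ribonucleotide reductase, changed by 0.95 and -0.84 at 6 h, a difference of -1.79. The second probe set of RRM2 was split as well (1.04 and -0.24). TYMS, thymidylate synthase, changed by 0.55 and -0.50 at 6 h, a difference of -1.05. For TYMS, experiment 2 lay above experiment 1 by 1.08 at 0 h and by 0.03 at 6 h, so the 6 h arrays nearly coincided. For PCNA the same gaps were 0.63 and -2.54. FEN1, the flap endonuclease, changed by 0.60 and -0.44 at 6 h, a difference of -1.04, but its second probe set was lower in both experiments (-0.03 and -1.35).

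At 9 h RFC5, a clamp loader subunit, changed by 1.56 and -0.58, a difference of -2.15. Of the further RFC5 probe sets, 1 was then lower in both experiments (-0.43 and -0.61) and 1 higher in both (0.37 and 0.36). ORC3, an origin recognition subunit, changed by 0.71 and -0.86, a difference of -1.57. CDC25A, an activating phosphatase of the S phase kinases, changed by 0.72 and -0.86, a difference of -1.59, but its second probe set was lower in both experiments (-0.49 and -1.23). The brighter MCM7 probe set changed by 0.40 and -0.62, a difference of -1.02. On that probe set, experiment 2 lay above experiment 1 by 1.14 at 0 h and by 0.12 at 9 h. The other MCM7 probe set was lower in both experiments (-0.32 and -0.48). LIG1, DNA ligase I, was the one gene with the opposite order, at -0.32 and 0.40, a difference of 0.73. Leaving out 1 array turned the mean change of PCNA from -0.56 to 0.72 at 6 h (without the 6 h array of experiment 2) and from -0.74 to 0.045 at 9 h (without the 9 h array of experiment 2).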

How the results depend on the processing

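No time comparison called a member under any alternative run. With the experiment as a term (replicate block), 66 probe sets of all passed at 9 h against 0 h and 30 with both induced times together, in place of 0 and 0, and 0 of them were members. The paired term changed no other call. With no filter on low values 24, 12, 18 and 17 probe sets passed at 6 h, 9 h, 9 h against 6 h and both induced times, and in unscaled values 9 for both induced times. Between the experiments, where 4 member probe sets passed among 455, the numbers were 1 and 238 with median scaling, 0 and 6 unscaled, 0 and 0 with no filter, 0 and 1 with no intensity trend, and 914 in all with an offset of 16. Leaving out 1 array gave 3 to 8 members and 361 to 1689 probe sets; 1620 and 1689 were without the 0 h array of experiment 1 or 2.

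The median change of the members was -1.44 at 6 h, -0.79 at 9 h, 0.67 at 9 h against 6 h and -1.13 for both induced times in unscaled values, where the median change of all tested genes was -1.38, -0.58, 0.79 and -0.97. At 6 h, where it was 0.11, it was -0.10 with median scaling, 0.27 with the lot line as block and -0.090 to 0.29 with 1 array left out. At 9 h against 6 h, where it was -0.31, it was -0.082 with median scaling and -0.46 to -0.15 with 1 array left out. Under scalings added after the data were seen, the count of members higher at 6 h in experiment 1 was 0 unscaled in place of 31. The count lower at 9 h than at 6 h in experiment 1 was 0 unscaled and 18 with median scaling in place of 28. The count higher in experiment 2 at 0 h was 7 unscaled in place of 29. The other within-experiment counts stayed within 1.5 times, though with median scaling the median in experiment 2 was -0.42 at 6 h and -0.64 at 9 h.

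Of the named changes, these took the opposite sign. Unscaled, where all genes shifted down, the 6 h values were -0.71 for ORC1, -0.89 for ORC3, -1.32 for ORC5, -1.13 for CDC6 (brighter), -1.20 for CDC6 (other), -1.42 for MCM4, -1.34 for MCM5, -1.16 for MCM7 (other), -0.95 for MCM7 (brighter), -0.87 for CDC45, -1.35 for POLD1, -0.54 for POLE, -1.25 for RRM1, -1.47 for RRM2 and -0.66 for CDC25A, and the 9 h values -0.27 for CDC6 (brighter), -0.45 for CDC6 (other), -0.54 for CDC45, -0.030 for POLE and -0.28 for RRM1. Median scaling gave -0.077 for MCM4, -0.0050 for POLD1 and -0.13 for RRM2 at 6 h and 0.0035 for ORC3 at 9 h. The lot line as block gave 0.054 for MCM3, 0.25 for RFC1 and 0.14 for RFC2 at 6 h. Leaving out 1 array gave, at 6 h, -0.25 to 0.74 for ORC5, -0.15 to 1.09 for CDC6 (brighter), -0.21 to 0.99 for CDC6 (other), -0.38 to 0.085 for MCM3, -0.55 to 0.79 for MCM4, -0.24 to 0.83 for MCM5, -0.12 to 1.09 for MCM7 (other), -0.17 to 0.45 for POLD1, -1.84 to 0.72 for PCNA, -0.26 to 0.18 for RFC1, -0.28 to 0.15 for RFC2, -0.64 to 0.71 for RRM2 and -0.56 to 0.088 for CCND1. The same at 9 h gave -0.57 to 0.43 for ORC3, -0.33 to 0.96 for CDC6 (brighter), -0.43 to 0.68 for CDC6 (other), -0.75 to 0.41 for MCM4, -0.999 to 0.21 for MCM7 (other), -0.68 to 0.46 for MCM7 (brighter), -0.49 to 0.54 for CDC45, -0.14 to 1.21 for POLE, -1.51 to 0.045 for PCNA and -0.49 to 0.36 for CDC25A. These changes did not pass the threshold in any of these settings. With 2 arrays per group, the number of arrays limits every value. The cause of the changes was not tested.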

Other observations

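Mitosis genes, which act later in the cell cycle, were set beside the replication genes from a list of 27 that were all tested. At 6 h all 27 were higher than at 0 h in experiment 1 (median log2 change 0.61), while 19 of 27 were lower in experiment 2 (median -0.25). At 0 h, 24 of 27 were higher in experiment 2 than in experiment 1, with a median difference of 0.42, and at 6 h 5 of 27 were, with a median of -0.53. AURKA, the centrosomal Aurora kinase, read 8.17, 9.49 and 9.49 at 0, 6 and 9 h in experiment 1 and 8.94, 8.97 and 8.48 in experiment 2, a change of 0.67 ± 0.43 at 6 h. Both 6 h arrays of AURKA were above both 0 h arrays, by a narrow margin in experiment 2.

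AURKB, the Aurora kinase of the chromosomal passenger complex, changed by 0.65 at 6 h, CENPA, the centromeric histone, by 0.48, and KIF11, a spindle motor, by 0.37. At 9 h UBE2C, the ubiquitin-conjugating enzyme of the anaphase-promoting complex, read 9.67 and 10.17 at 0 h against 9.13 and 9.31 at 9 h, a change of -0.70 ± 0.27, so the groups did not overlap. PLK1, a mitotic kinase, changed by -0.50, CENPE, a kinetochore motor, by 0.62 and CDC25C, an activator of mitotic entry, by 0.56 at 9 h. In limma 0 of 27 mitosis genes passed in either time comparison in either fit, and 0 at 6 h and 1 at 9 h (3.7%) had an unadjusted p under 0.05 without the paired term, beside 4.22% and 7.91% of all genes.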
